A study of Mus musculus with 2 samples.

Results

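Chromatin accessibility of the pyruvate dehydrogenase kinase genes Pdk1, Pdk2, Pdk3 and Pdk4 was examined in nuclei from sham and stroke mouse brains. These 4 genes, chosen with earlier results of these data in view, were taken from 21911 protein-coding genes. For each gene, sequenced fragments that overlapped the gene or its 2 kb upstream were counted and scaled to 1000000 fragments of the same nuclei (CPM). The nuclei were those called as cells in which over 20% of fragments lay in peaks. Brains came from wild-type C57BL/6J male young adult mice 48 h after surgery, and both groups therefore had an operation. The stroke group underwent transient middle cerebral artery occlusion and reperfusion (MCAO/R) with an intraluminal filament, and the sham group had the filament inserted without lasting occlusion. Nuclei of 4 brains were pooled in each group and made into 1 scATAC-seq library per group, so no difference between sham and stroke could be tested. The stroke library was made from ipsilateral hemispheres and the sham library from whole brains without olfactory bulbs and cerebellum, so tissue sampled and surgery cannot be told apart. Intervals given here are exact 95% intervals that cover counting error only. Those of levels and ratios treat fragments as independent, but 1 nucleus can hold several, up to 21 for Pdk1 in sham. They can therefore be too narrow, also where they do not overlap or leave out 1.

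The pyruvate dehydrogenase complex turns pyruvate, the end product of glycolysis, into acetyl-CoA for the citric acid cycle inside mitochondria. The kinases phosphorylate its E1 alpha subunit and switch the complex off, and dedicated phosphatases switch it on again. Pdk1 is known as a target of hypoxia-inducible factors, Pdk2 is the broadly expressed family member, Pdk3 is known for brain and testis, and Pdk4 is known for its induction by fasting, glucocorticoids and fatty acids through FOXO and PPAR factors. Astrocytes are known for strong glycolysis and for passing lactate to neurons.

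The Pdk4 promoter is shown first because most Pdk4 fragments of astrocyte-gated nuclei lay around the start. The sequence is RefSeq's (GRCm38.p6, the patch release of mm10), is limited to the bases before the annotated starts, and has each CG dinucleotide in capitals.
Pdk4 promoter, chr6:5496310-5496528, minus strand: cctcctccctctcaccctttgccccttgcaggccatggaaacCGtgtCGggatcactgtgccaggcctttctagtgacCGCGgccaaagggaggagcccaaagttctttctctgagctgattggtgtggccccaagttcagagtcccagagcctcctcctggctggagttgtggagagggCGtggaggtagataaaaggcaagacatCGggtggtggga
The bases directly before it are shown because fragment ends in astrocyte-gated nuclei reached into them.
Pdk4 upstream stretch, chr6:5496529-5496809, minus strand: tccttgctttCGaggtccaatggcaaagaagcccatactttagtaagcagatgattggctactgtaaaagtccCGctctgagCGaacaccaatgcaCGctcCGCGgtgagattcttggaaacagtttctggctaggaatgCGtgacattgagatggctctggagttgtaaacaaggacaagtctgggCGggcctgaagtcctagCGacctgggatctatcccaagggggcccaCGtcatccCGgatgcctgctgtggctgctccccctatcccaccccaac
This Pdk4 promoter held 6 CG dinucleotides in 219 bases and the stretch before it 11 in 281. The 3 other promoters are shown for comparison.
Pdk1 promoter, chr2:71872974-71873223, plus strand: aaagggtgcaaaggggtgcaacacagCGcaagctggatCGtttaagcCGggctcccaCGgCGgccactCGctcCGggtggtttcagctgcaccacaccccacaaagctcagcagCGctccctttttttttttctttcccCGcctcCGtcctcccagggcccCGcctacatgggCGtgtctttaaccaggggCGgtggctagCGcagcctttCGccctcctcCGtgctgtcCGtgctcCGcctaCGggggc
Pdk2 promoter, chr11:95041372-95041621, minus strand: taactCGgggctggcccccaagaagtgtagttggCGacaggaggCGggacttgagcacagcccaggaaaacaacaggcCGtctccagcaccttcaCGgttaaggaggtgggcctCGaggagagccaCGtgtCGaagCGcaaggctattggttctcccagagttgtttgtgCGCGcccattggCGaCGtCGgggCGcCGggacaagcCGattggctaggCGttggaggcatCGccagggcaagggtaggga
Pdk3 promoter, chrX:93832202-93832400, minus strand: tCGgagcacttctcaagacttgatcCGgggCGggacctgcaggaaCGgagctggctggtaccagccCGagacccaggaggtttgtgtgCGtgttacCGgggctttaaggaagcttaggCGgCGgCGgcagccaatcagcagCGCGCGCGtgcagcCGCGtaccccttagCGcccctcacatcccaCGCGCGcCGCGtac
Over the 250 bases before the RefSeq start, Pdk1 and Pdk2 each held 19 CG dinucleotides, Pdk3 29 and Pdk4 6. Of 32851 RefSeq promoters, 49.6% had fewer CG dinucleotides than Pdk4, against 80.3% for Pdk1 and Pdk2 and 93.2% for Pdk3. Pdk4 was thus near the middle of all promoters and the other members were in the CG-rich part.

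Short motifs were looked up on both strands of these 250 bases. The core of the hypoxia response element, ACGTG, was present at Pdk2 and Pdk3 and in 16.6% of all promoters, and its GCGTG form at Pdk1, Pdk3 and Pdk4 and in 28.2%. At Pdk2 the ACGTG matches on the 2 strands overlapped each other. The nuclear receptor motif AGGTCA (14.0% of promoters), the glucocorticoid receptor motif TGTTCT (16.1%), the FOXO motif GTAAACA (3.17%) and TATAAA (12.4%) were in none of the 4. CCAAT was present at Pdk2, Pdk3 and Pdk4 and in 33.8% of promoters. The 281 bases from 500 to 220 bases before the Pdk4 start were searched for the same motifs and compared with that stretch before 21911 genes. ACGTG occurred 1 time, 269 bases before the start (16.1% of genes), GCGTG 2 times (22.6%), CCAAT 3 times (32.2%) and GTAAACA 1 time, 334 bases before the start (3.87%). The nuclear receptor, glucocorticoid receptor and TATA motifs had 0 matches before Pdk4. In the same stretch AGGTCA was found before Pdk2, TGTTCT before Pdk1 and TATAAA before none of the 4. Among the 4 members the GCGTG form was found in this stretch before Pdk3 and Pdk4, and each of the other 3 matched motifs only before Pdk4. A match of letters is a description and not a bound site.

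Pdk1 (ENSMUSG00000006494) lies on the plus strand of chromosome 2 of mm10, from 71873224 to 71903858. Pdk2 (ENSMUSG00000038967) lies on the minus strand of chromosome 11, from 95026258 to 95041354. Pdk3 (ENSMUSG00000035232) lies on the minus strand of chromosome X, from 93764607 to 93832201, and Pdk4 (ENSMUSG00000019577) on the minus strand of chromosome 6, from 5483351 to 5496309. The counted window of Pdk2 contained the antisense gene Gm11513 and ended 171 bp from Samd14, and since fragments carry no strand, Pdk2 and Gm11513 signal cannot be separated. The windows of Pdk1, Pdk3 and Pdk4 overlapped no other annotated gene.

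The sham library held 76959104 fragments and the stroke library 96465679. Of 6979 and 8740 called barcodes, 6817 sham and 5054 stroke nuclei were kept, with medians of 10356 and 9898 fragments. The share of their fragments in peaks was 40.4% in sham and 34.3% in stroke. The libraries shared 42 barcode sequences among kept nuclei, which is 0.616% of sham and 0.831% of stroke nuclei. Nuclei were assigned to 8 classes by marker gates: a nucleus passed a gate if the summed marker fragments of its 25-nuclei neighbourhood were enriched over its depth. The Pdk windows were left out of the neighbourhoods and of the marker lists.

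The astrocyte gate held 395 sham nuclei (5.79%) and 534 stroke nuclei (10.6%), and it was set by the sum of 14 markers. The summed astrocyte marker level was 1624 CPM in these sham nuclei against 438.4 CPM in all sham nuclei, and 1473 against 521.2 CPM in stroke. All 14 markers were above the library level in both libraries. The higher sum follows from how the gate was set and is no check of it. The gate was also built on alternate markers, though the loci of the remaining ones still took part in forming the neighbourhoods. The remaining markers were then at 3.25 to 4.37 times their level in the library's other kept nuclei. For the glutamatergic gate this was only 1.46 to 1.58 times, and 1582 sham and 921 stroke nuclei lay within 10% of its threshold, against 1870 and 617 gated nuclei. Levels of that gate therefore describe a weakly separated group. With both libraries summed, no listed marker of any class was among the 10 leading genes of the gate by fold, and Pdk4 was the tenth. Markers of the other classes were not at 0 in the gate. The largest of these sums was that of the 10 OPC markers, at 959.7 CPM in sham and 894.5 CPM in stroke. In all kept nuclei these markers were at 802.3 and 806.1 CPM. The 20 myeloid markers summed to 450.1 CPM in sham and 443.9 CPM in stroke, and the 18 vascular and leptomeningeal markers to 412.6 and 451.7 CPM. In all kept nuclei these last lists summed to 521.8 and 583.1 CPM and to 310.5 and 367.8 CPM. Their part in the results below was not tested.

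Across all nuclei, Pdk4 was the member with a higher level in stroke, and the other 3 were slightly lower. Pdk4 had 446 fragments and 6.07 CPM (5.52 to 6.66) in sham, and 519 fragments and 9.83 CPM (9.003 to 10.7) in stroke. The ratio of stroke to sham was 1.62 (1.42 to 1.84). It was 1.52 (1.31 to 1.77) at the promoter and 1.91 (1.49 to 2.46) in the rest of the window. Pdk1 was at 39.3 CPM in sham and 35.3 CPM in stroke, a ratio of 0.898 (0.847 to 0.953). Pdk2 was at 56.7 and 52.3 CPM, a ratio of 0.922 (0.879 to 0.968), and Pdk3 at 18.7 and 17.0 CPM, a ratio of 0.909 (0.835 to 0.990). Scaled to promoter fragments instead, the ratios of Pdk1, Pdk2 and Pdk3 were 0.986 (0.930 to 1.05), 1.01 (0.964 to 1.06) and 0.997 (0.916 to 1.09), so that every interval held 1 and the direction of Pdk2 turned. The median ratio of the 20689 genes with at least 30 fragments was 0.978, so Pdk1, Pdk2 and Pdk3 were at 0.918, 0.943 and 0.929 of it. Pdk4 was the 1 member of 4 past 1.5-fold, where 11.1% of all genes were past it in either direction and 10.7% were higher in stroke. Pdk4 was not past 1.5-fold when thinned to 5000 fragments, at 1.48 (1.19 to 1.83), or without the astrocyte-gated nuclei. Nothing is read from that count, because the members were chosen with this contrast known.

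Per kb of window, the sham levels over all nuclei were 3.32 CPM for Pdk2, 1.21 for Pdk1, 0.406 for Pdk4 and 0.268 for Pdk3. In astrocyte-gated nuclei of sham the order was Pdk2 at 5.31, Pdk4 at 3.64, Pdk1 at 1.74 and Pdk3 at 0.166 CPM per kb. In astrocyte-gated nuclei of stroke it was the same, with 4.69, 3.65, 1.21 and 0.237 CPM per kb. Per kb, Pdk4 thus stood below Pdk1 over all nuclei of sham and above it in the astrocyte gate. Undivided, Pdk4 was slightly below Pdk1 in the astrocyte gate of sham, at 54.5 against 56.7 CPM. In that of stroke it was above, at 54.5 against 39.6 CPM.

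**Figure D1:**
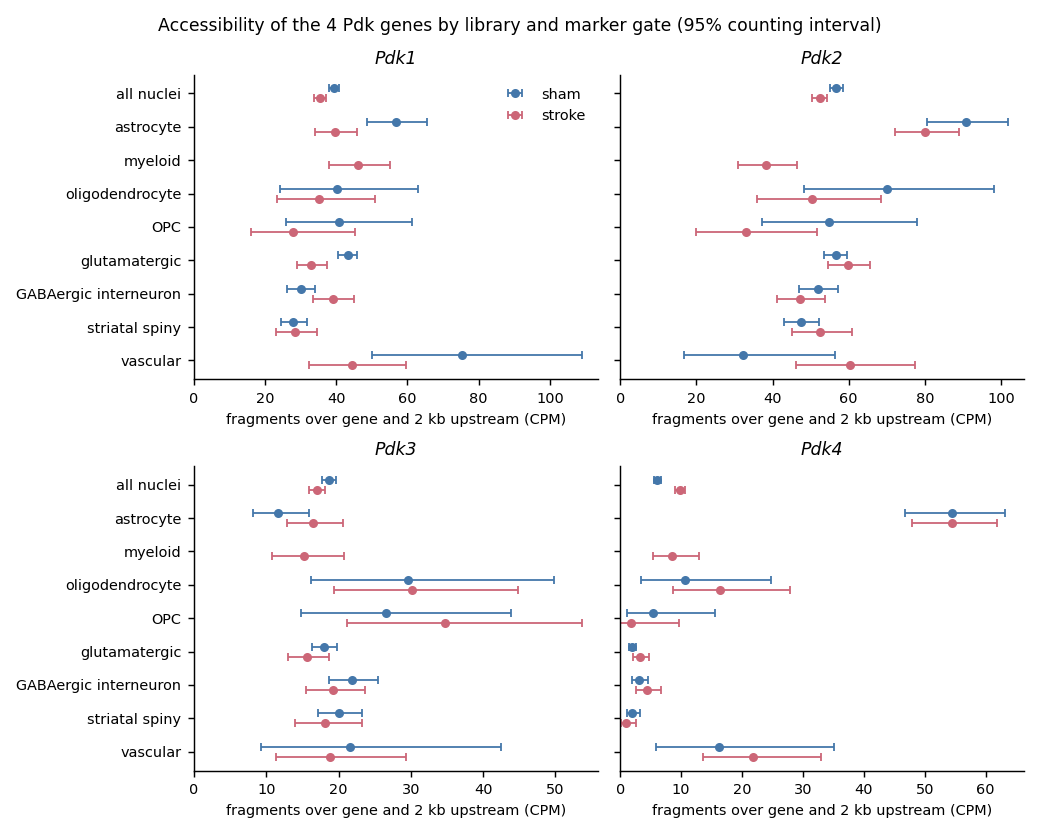
Fragments overlapping the gene or its 2 kb upstream, in CPM, of Pdk1, Pdk2, Pdk3 and Pdk4 in all nuclei and in each marker gate with at least 50 nuclei; points are the level of the sham (blue) and stroke (red) library and bars the exact 95% counting interval. Pdk4 is at 54.5 CPM in the astrocyte gate of both libraries and at or below 21.8 CPM in every other gate.

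Pdk4 accessibility was concentrated in astrocyte-gated nuclei in both libraries. In sham these nuclei held 174 Pdk4 fragments and 54.5 CPM (46.7 to 63.2), and in stroke 245 fragments and 54.5 CPM (47.9 to 61.8). All other nuclei held 3.87 CPM in sham and 5.67 CPM in stroke. The astrocyte level was 14.1 times that of the other nuclei in sham (11.6 to 17.1) and 9.61 times in stroke (8.06 to 11.5), the latter being 6.07 times (4.41 to 8.18) in a gate with 2 times the enrichment. In rank of this fold, Pdk4 was 10 of 19629 genes in sham and 8 of 19899 in stroke. In all, a fold of 5 was passed by 1.27% of genes in sham and 0.598% in stroke. Pdk2 ranked 3206 in sham and 2851 in stroke, Pdk1 4295 and 7631, and Pdk3 15417 and 10353.

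The next Pdk4 levels were found in the vascular and leptomeningeal gate, with 6 fragments and 16.2 CPM (5.93 to 35.2) in sham and 22 fragments and 21.8 CPM (13.6 to 32.9) in stroke. The oligodendrocyte gate had 10.6 CPM (3.44 to 24.7) and 16.3 CPM (8.70 to 27.9). These intervals overlapped each other but not that of the astrocyte gate in stroke or in sham. The nuclei of both gates were shallow, with medians of 1453 fragments (vascular, sham), 2730 (vascular, stroke), 1895 (oligodendrocyte, sham) and 3708 (oligodendrocyte, stroke). Myeloid-gated nuclei numbered 201 in stroke, with 8.57 CPM (5.37 to 13.0), and 22 in sham, too few for a level.

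Pdk4 levels were low in the neuronal gates. Glutamatergic neuron-gated nuclei had 1.91 CPM (1.39 to 2.55) in sham and 3.26 CPM (2.11 to 4.81) in stroke, a ratio of 1.71 (1.004 to 2.85) in this weakly separated gate. With the gate built on alternate markers the ratio was 3.57 (1.87 to 6.89) and 1.17 (0.703 to 1.89). GABAergic interneuron-gated nuclei had 3.07 and 4.33 CPM, and striatal spiny projection neuron-gated nuclei 1.99 and 0.879 CPM from 17 and 3 fragments. The sham level of the striatal gate was 0.301 times that of all other nuclei (0.174 to 0.488), but 1.197 times (0.905 to 1.56) when the gate was built on the even-placed markers, so the low level there depended on the markers. Oligodendrocyte precursor (OPC)-gated nuclei had 3 fragments in sham and 1 in stroke, a ratio of 0.327 with an interval from 0.0062 to 4.07. In the glutamatergic gate 1 of 4 tested members was past 1.5-fold, where 6.51% of 18312 genes were. In the GABAergic interneuron gate it was 0 of 4, where 7.23% of genes were, in the striatal spiny projection neuron gate 0 of 3, where 11.1% were, and in the oligodendrocyte gate 0 of 3, where 27.3% were. In the OPC gate it was 1 of 3, Pdk2, where 25.9% were, and in the vascular and leptomeningeal gate 2 of 2, Pdk1 and Pdk2, where 30.1% were.

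Within the astrocyte gate the Pdk4 level did not differ between the libraries beyond counting error. The ratio of stroke to sham was 1.001 (0.821 to 1.22), where the median of 16052 genes was 0.974. None of the 4 members was past 1.5-fold in this gate, where 13.8% of genes were. That count depended on the processing, since Pdk3 was past 1.5-fold in 6 of 13 alternatives and Pdk1 in 2. Astrocyte-gated nuclei made up 4.35% of the fragments of kept sham nuclei and 39.0% of their Pdk4 fragments. Among kept stroke nuclei they made up 8.51% of the fragments and 47.2% of the Pdk4 fragments. If every gate kept its sham level and took its stroke share of fragments, Pdk4 would be at 9.22 CPM, 1.52 times the sham level. If every gate took its stroke level and kept its sham share, it would be at 6.605 CPM, 1.09 times the sham level. The 2649 sham and 2330 stroke nuclei that passed no gate were at 5.97 and 5.998 CPM. Their promoter ratio was 0.792 (0.597 to 1.05) and that in the rest of the window 1.55 (1.06 to 2.29). Outside the astrocyte gate as a whole, the ratio was 1.47 (1.23 to 1.74). All these shares are those after the filter on fragments in peaks, which left out 162 called barcodes in sham and 3686 in stroke. The barcodes left out held 1334500 and 35398628 fragments, and the effect of the filter on the shares was not tested. Shares of nuclei in these libraries also depend on nuclear isolation and on the tissue taken. Their relation to cell numbers in the brain was not tested.

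**Figure D2:**
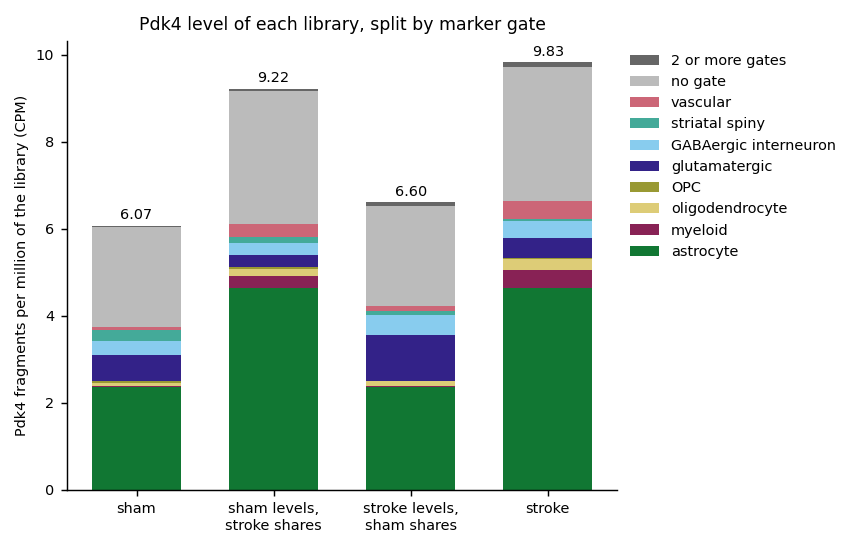
Pdk4 fragments in CPM of all kept nuclei, stacked by marker gate. The bars are the sham library, sham levels with stroke shares, stroke levels with sham shares, and the stroke library. The 4 totals are 6.07, 9.22, 6.605 and 9.83 CPM, and the astrocyte part is the largest named gate in each bar.

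Single nuclei were compared after thinning each to 5000 fragments and leaving out shallower nuclei. Of 218 sham astrocyte-gated nuclei at this depth, 26.1% (20.4% to 32.5%) had at least 1 Pdk4 fragment, and of 361 stroke nuclei 21.1% (17.0% to 25.6%). In the glutamatergic gate the share was 0.779% (0.416% to 1.33%) of 1668 sham nuclei and 1.72% (0.827% to 3.14%) of 582 stroke nuclei. The thinning left out 177 sham and 173 stroke astrocyte-gated nuclei. Without thinning the shares in the astrocyte gate were 28.4% and 31.6%, and those in the glutamatergic gate 2.25% and 3.57%. No astrocyte-gated nucleus had more than 5 Pdk4 fragments, and 42 sham and 59 stroke nuclei had 2 or more.

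The astrocyte gate was also divided at the median of 14 reactive astrocyte genes such as Gfap and Serpina3n, a division chosen after the data had been seen. The lower part held 344 sham and 121 stroke nuclei, and the upper part 51 and 413. Of these nuclei, 76 lay within 10% of the median. Pdk4 was at 55.1 CPM (47.1 to 64.1) in the lower part of sham and at 40.8 CPM (28.8 to 56.0) in that of stroke. In the upper part it was at 41.3 CPM (15.1 to 89.8) in sham, from 6 fragments, and at 58.1 CPM (50.5 to 66.6) in stroke. All 4 intervals overlapped.

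Along the gene, Pdk4 fragments of astrocyte-gated nuclei lay at the start. Within 1 kb on either side of it were 149 of 174 window fragments in sham (85.6%) and 206 of 245 in stroke (84.1%). In glutamatergic neuron-gated nuclei this share was 55.6% and 60.0%. From 750 bp before to 250 bp after the start, the part that holds both printed Pdk4 sequences, astrocyte-gated nuclei were at 42.3 CPM in sham and 42.5 CPM in stroke. All gated neurons together were at 1.001 and 1.46 CPM in the same stretch. Steps of 500 bp beyond the far end of the gene, at 25.5 and 30 kb from the start, also held astrocyte signal. The first had 8.14 CPM in sham and 5.79 CPM in stroke astrocyte-gated nuclei against 0.185 and 0.311 CPM in all other nuclei. The second had 5.01 and 6.23 CPM against 0.114 and 0.186 CPM. They lie at chr6:5470560-5471059 and chr6:5466060-5466559 in no annotated gene. A step at 48.5 kb, also in no annotated gene, had 3.44 CPM in sham and 4.67 CPM in stroke astrocyte-gated nuclei. All other nuclei had 0.327 and 1.14 CPM there, from 23 and 55 fragments. A step 13.5 kb upstream had 5 fragments in sham and 18 in stroke astrocyte-gated nuclei, a ratio of 2.56 (0.916 to 8.82). In all other nuclei it had 13 and 24, a ratio of 2.69 (1.31 to 5.74). These steps were chosen from the astrocyte profile and are described without a test.

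**Figure D3:**
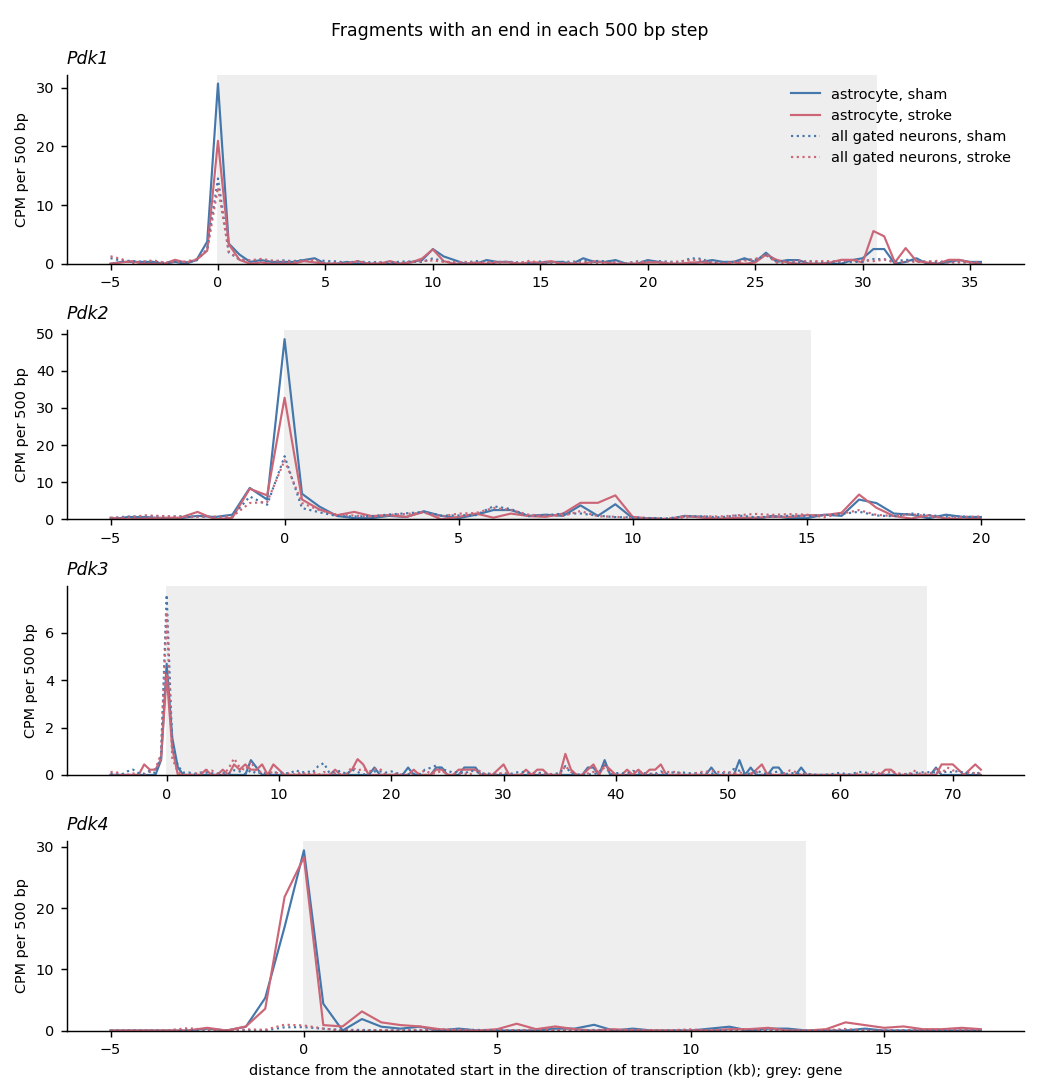
Fragments with an end in each 500 bp step, in CPM, against the distance in kb from the annotated start, for astrocyte-gated nuclei (solid) and all gated neurons (dotted) of sham (blue) and stroke (red); grey marks the gene. Pdk4 shows an astrocyte peak at the start of 29.4 CPM in sham and 28.3 CPM in stroke, and Pdk1 and Pdk2 peaks at the start are lower in stroke than in sham.

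Pdk1 had a lower CPM in astrocyte-gated nuclei of stroke than in those of sham. It had 181 fragments and 56.7 CPM (48.7 to 65.5) in sham and 178 fragments and 39.6 CPM (34.0 to 45.9) in stroke. The intervals did not overlap, and the ratio was 0.699 (0.566 to 0.865). It was below 1 in 13 of 13 alternatives, but its interval held 1 in 3 of them. It was 0.894 (0.616 to 1.31) when thinned to 5000 fragments. In the lower and upper part of the reactive division it was 0.723 (0.495 to 1.03) and 0.635 (0.325 to 1.42). The share of thinned nuclei with a Pdk1 fragment did not differ. It was 18.8% of 218 in sham (13.8% to 24.6%) and 18.8% of 361 in stroke (14.9% to 23.3%). Without thinning, 1 sham nucleus held 11 of the 181 fragments, and no stroke nucleus held more than 6. Nuclei of the weakly separated glutamatergic gate were also lower in stroke, with 43.2 CPM in sham and 33.0 CPM in stroke and a ratio of 0.763 (0.663 to 0.877). GABAergic interneuron-gated nuclei were higher, with 29.9 and 39.0 CPM and a ratio of 1.30 (1.07 to 1.59). Of these nuclei 846 were in sham and 549 in stroke, and 400 and 344 nuclei lay within 10% of the threshold. The ratio was above 1 in 6 of 6 alternatives, but its interval held 1 in 2. These were 1.05 (0.801 to 1.38) with the even-placed markers and 1.07 (0.816 to 1.40) with the promoter only. The ratio was 1.96 (1.09 to 3.51) in the gate with 2 times the enrichment. Striatal spiny projection neuron-gated nuclei were at 27.9 and 28.4 CPM, a ratio of 1.02 (0.797 to 1.30). Vascular and leptomeningeal-gated nuclei had 75.4 CPM from 28 fragments in sham and 44.5 CPM from 45 in stroke, a ratio of 0.590 (0.360 to 0.983), which is past 1.5-fold, as 30.1% of genes were in that gate. With promoter scaling it was 0.713 (0.435 to 1.19). In sham, 1 nucleus of this gate held 8 of the 28 fragments. Thinned to 5000 fragments, 10.0% of 20 sham nuclei (1.23% to 31.7%) had a Pdk1 fragment. In stroke it was 21.7% of 60 (12.1% to 34.2%), the other direction with overlapping intervals. In CPM, Pdk1 therefore went both ways by gate. Myeloid-gated nuclei of stroke were at 46.0 CPM (38.0 to 55.0), which leads the order of gates in stroke, but its interval overlapped those of all gates except the glutamatergic and striatal spiny ones.

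The Pdk1 ratio of astrocyte-gated nuclei was similar at the start and in the rest of the window. Promoter fragments were 35.7 CPM in sham and 24.5 CPM in stroke, a ratio of 0.686 (0.523 to 0.900). Window fragments outside the promoter were 20.97 CPM in sham and 15.1 CPM in stroke, a ratio of 0.722 (0.507 to 1.03). The promoter held 63.0% and 61.8% of the window fragments. In GABAergic interneuron-gated nuclei the promoter ratio was 1.07 (0.816 to 1.40) and that outside the promoter 1.69 (1.24 to 2.30), from 87 fragments in each library. Around the far end of Pdk1, from 30.25 to 32.25 kb after the start at chr2:71903474-71905473, astrocyte-gated nuclei went the other way. They had 14 fragments in sham and 50 in stroke there, 4.38 and 11.1 CPM, a ratio of 2.54 (1.38 to 4.98). All other nuclei had 2.33 and 1.86 CPM, a ratio of 0.799 (0.611 to 1.04). This stretch was picked because it differed, and only its first part lies inside the counted window.

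Pdk2 was the member with the highest level per kb over all nuclei and in the astrocyte gate of both libraries. In the vascular and leptomeningeal gate of sham, Pdk1 was above it, at 2.31 against 1.89 CPM per kb. The astrocyte gate led the Pdk2 order in both libraries. Its interval overlapped that of the oligodendrocyte gate in sham and that of the vascular gate in stroke. Astrocyte-gated nuclei had 90.8 CPM (80.6 to 101.8) in sham and 80.1 CPM (72.1 to 88.9) in stroke, a ratio of 0.883 (0.754 to 1.03). They were at 1.64 times the other nuclei in sham (1.45 to 1.85) and 1.61 times in stroke (1.44 to 1.80). At the promoter alone the stroke level was lower, with 64.5 CPM in sham and 47.2 CPM in stroke and a ratio of 0.732 (0.601 to 0.891). The rest of the window went the other way, with 26.3 and 32.9 CPM and a ratio of 1.25 (0.952 to 1.66). Promoters as a whole took a smaller share of the fragments of this gate in stroke. Scaling to them moved the median ratio of 16052 genes from 0.974 to 1.08. The part of this shift in the Pdk2 ratios was not tested. Glutamatergic neuron-gated nuclei were at 56.5 and 59.8 CPM, interneuron-gated nuclei at 51.8 and 47.2 CPM, and striatal spiny projection neuron-gated nuclei at 47.4 and 52.5 CPM, each with a ratio interval that held 1. OPC-gated nuclei had 54.9 and 33.0 CPM, a ratio of 0.601 (0.321 to 1.098), where 25.9% of genes were past 1.5-fold. Vascular and leptomeningeal-gated nuclei had 12 fragments in sham and 61 in stroke, a ratio of 1.87 (0.995 to 3.81), where 30.1% of genes were past 1.5-fold. Myeloid-gated nuclei of stroke had 38.2 CPM (31.0 to 46.5), below the intervals of the astrocyte and glutamatergic gates.

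Pdk3 was the one member with less signal in the astrocyte gate than elsewhere in sham. Astrocyte-gated nuclei had 37 fragments and 11.6 CPM (8.15 to 16.0) in sham against 19.0 CPM in all other sham nuclei, a ratio of 0.610 (0.427 to 0.845). With the promoter only this sham ratio was 0.737 (0.447 to 1.15), an interval that held 1. In stroke the astrocyte-gated nuclei had 74 fragments and 16.5 CPM (12.9 to 20.7) against 17.0 CPM, a ratio of 0.968 (0.753 to 1.23). The ratio of stroke to sham in the gate was 1.42 (0.946 to 2.17). It was 1.58 (1.0498 to 2.41) when scaled to promoter fragments, 3.09 (1.43 to 7.64) when thinned to 5000 fragments and 1.88 (0.887 to 3.95) in the gate with 2 times the enrichment. Promoter fragments gave no such difference, with 6.26 CPM in sham and 5.34 CPM in stroke from 20 and 24 fragments. Outside the promoter the level was 5.32 CPM from 17 fragments and 11.1 CPM from 50, a ratio of 2.09 (1.19 to 3.87). These few fragments were spread over most of a 69.6 kb window. Stroke barcodes left out for a low share in peaks had nearly as much Pdk3 signal as kept ones, 16.0 against 17.0 CPM. How much of the level outside the promoter was background was not tested. The highest Pdk3 levels were in the oligodendrocyte gate, at 29.7 and 30.2 CPM, and the OPC gate, at 26.6 and 34.7 CPM, but from 14 to 24 fragments each and with intervals that overlapped that of the interneuron gate. Neuronal gates ranged from 15.6 to 21.9 CPM over both libraries, and none of their ratios left out 1.

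**Figure D4:**
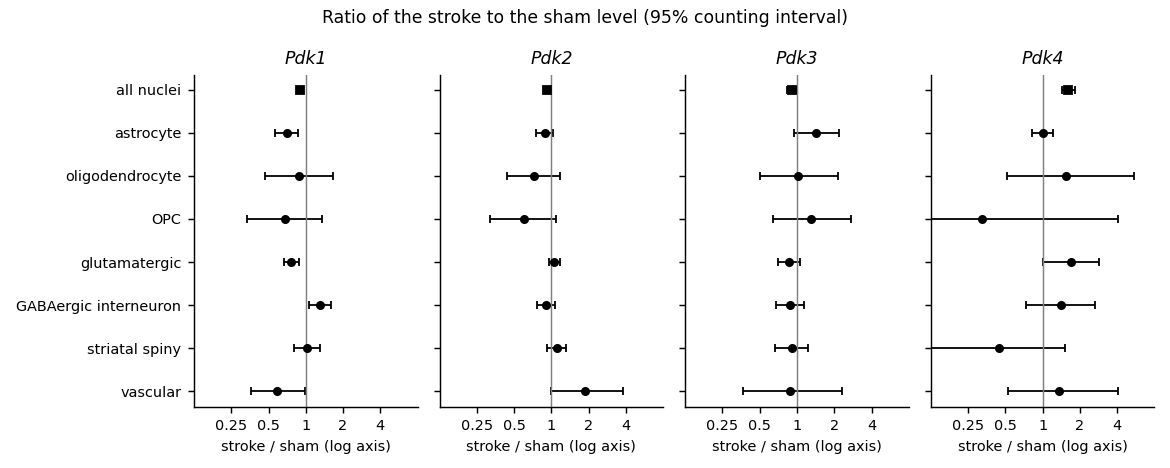
Ratio of the stroke to the sham level of each member in all nuclei (square) and in each gate with at least 50 nuclei in both libraries (circles), on a log axis with exact 95% counting intervals; the lower ends for Pdk4 in the OPC and striatal spiny gates run off the axis. Pdk4 is at 1.62 in all nuclei and 1.001 in the astrocyte gate, and Pdk1 is at 0.699 in the astrocyte gate and 1.30 in the GABAergic interneuron gate.

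The other parts of the pathway were counted in 7 lists with 67 genes, all of which had at least 30 fragments. In all nuclei 3 were higher past 1.5-fold and 0 were lower, where 10.7% of all genes were higher and 0.334% lower. Their median log2 ratio was -0.02, against -0.03 for all genes. In astrocyte-gated nuclei 7 were higher and 3 lower, where 8.16% of genes were higher and 5.66% lower. The median there was -0.09, against -0.04.

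The target of the kinases, the pyruvate dehydrogenase complex, had 0 of 5 genes past 1.5-fold in all nuclei and 1 of 5 in astrocyte-gated nuclei. Dlat, its E2 subunit, was at 27.9 CPM in sham and 18.0 CPM in stroke astrocyte-gated nuclei, a ratio of 0.647 (0.473 to 0.885). Pdhb and Pdhx were lower by less than 1.5-fold with an interval that left out 1. The list's median log2 ratio was -0.14 in all nuclei and -0.31 in astrocyte-gated nuclei. Of the opposing phosphatases Pdp1 and Pdp2 and the regulatory subunit Pdpr, 0 of 3 were past 1.5-fold, with medians of -0.16 and -0.18. Bckdk, the related kinase of branched-chain keto acid dehydrogenase, was at 0.776 (0.713 to 0.845) in all nuclei and 0.711 (0.462 to 1.09) in astrocyte-gated nuclei.

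Of 9 genes of pyruvate and lactate handling, 2 were higher in astrocyte-gated nuclei of stroke and 0 were lower, with a median log2 ratio of 0.04. Slc16a1, the lactate transporter MCT1, was at 13.1 CPM in sham and 23.6 CPM in stroke, a ratio of 1.79 (1.24 to 2.63). Ldha, a lactate dehydrogenase subunit, was at 17.8 and 27.4 CPM, a ratio of 1.53 (1.11 to 2.14). The carriers Mpc1 and Mpc2, which bring pyruvate into mitochondria, were at ratios of 0.984 (0.803 to 1.21) and 0.912 (0.785 to 1.06). In all nuclei 0 of the 9 genes were past 1.5-fold, and the median log2 ratio was -0.14. There 6 genes had an interval below 1, with Ldha at 0.904 (0.844 to 0.967), and 1 an interval above 1.

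Genes of the factors known to act on Pdk4 were counted next. Of 18 genes of PPAR and FOXO factors and fatty acid oxidation, 1 was higher in all nuclei, Plin2, which coats lipid droplets, at 4.14 CPM in sham and 8.60 CPM in stroke and a ratio of 2.08 (1.79 to 2.41). In astrocyte-gated nuclei 2 were lower and 0 higher. These were the mitochondrial uncoupling proteins Ucp3, at a ratio of 0.568 (0.420 to 0.765), and Ucp2, at 0.634 (0.406 to 0.987), and the median log2 ratio of the list was -0.17. At any fold, 2 genes of the list had an interval above 1 and 6 an interval below 1 in astrocyte-gated nuclei. In all nuclei 11 had an interval above 1 and 2 an interval below 1, with a median log2 ratio of 0.095. Ucp2 was at 1.19 (1.09 to 1.31) in all nuclei. Of 12 genes of the glucocorticoid receptor and its targets, 3 were higher in astrocyte-gated nuclei. Fkbp5, a chaperone of the receptor, was at 55.7 CPM in sham and 123.1 CPM in stroke, a ratio of 2.21 (1.86 to 2.63). Cebpd, a transcription factor, was at a ratio of 2.00 (1.58 to 2.56) there and 2.32 (2.08 to 2.59) in all nuclei, and Cdkn1a, a cell cycle inhibitor, at 1.84 (1.38 to 2.49). The median log2 ratio of this list was -0.03, and 4 of its genes were lower in stroke by less than 1.5-fold with an interval that left out 1. These were Ddit4, an inhibitor of mTORC1, at a ratio of 0.731 (0.625 to 0.855), Nr3c1, Per1 and Errfi1. Sgk1 and Zbtb16 were higher by less than 1.5-fold with such an interval. Of 19 HIF regulators and targets, 2 were higher in astrocyte-gated nuclei, and the median log2 ratio was -0.11. Hk2, the hexokinase of glycolysis that HIF induces, was at 21.6 CPM in sham and 53.2 CPM in stroke, a ratio of 2.46 (1.88 to 3.27), and at 1.62 (1.51 to 1.73) in all nuclei. The other was Adm, at 1.75 (0.894 to 3.63) from 13 and 32 fragments. In the other direction, 4 genes were lower by less than 1.5-fold with an interval that left out 1. They were Vegfa, the vascular growth factor, at 0.750 (0.643 to 0.875), Pfkfb3, an activator of glycolysis, at 0.774 (0.692 to 0.866), P4ha1 at 0.794 (0.680 to 0.926) and Ankrd37 at 0.717 (0.549 to 0.938). In the same nuclei Pdk4 was at 1.001 and Pdk1 at 0.699.

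The genes most like each member across gates were found by Pearson's r of log2(CPM + 1) over 15 groups of nuclei, among 16067 genes. The groups share 2 libraries and differ in depth, so r is a description. Pdk4 was most like Slc13a3, a dicarboxylate transporter, at r = 0.949, followed by Gli2 (0.928), Sdc4 (0.923), Zbtb7b (0.920) and Prkag3 (0.916). Pdk2 was most like Prnp (0.924), Tbcel (0.903), Erv3 (0.898), Prn (0.897) and Slc27a1 (0.891), of which Prnp and Prn share a locus. Pdk1 was most like Pih1d1 (0.882), Trappc3 (0.881), Gm20605 (0.880), Lrch4 (0.874) and Zbtb22 (0.864). Pdk3 was most like Tuba1a (0.871), Myo7b (0.867), Col9a2 (0.864), Tspan2 (0.850) and Serinc5 (0.849). Among the members, r was 0.642 between Pdk1 and Pdk4 and 0.493 between Pdk2 and Pdk4, and -0.299 between Pdk3 and Pdk4.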

How the data were processed

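Single-nucleus ATAC libraries were made with the 10x Next GEM kit. The authors aligned reads to mm10 with Cell Ranger ATAC 2.1.0, per the labels, and deposited, for each library, unnormalized fragment lists with ends at the Tn5 cut sites and a table of raw counts for every barcode. Whether these counts were filtered further is not given in the sources used here.

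Fragments of called barcodes were counted over GENCODE M21 genes plus 2 kb upstream. Levels are fragments scaled to 1000000 in the nuclei counted (CPM). Neighbourhoods of 25 nuclei were built from LSI components 2 to 20 of 5000 bp tiles. A gate's threshold was the geometric mean of the median and the 99.5th percentile of marker enrichment. Nuclei passing 2 or more gates (56 sham and 66 stroke) were given to no gate but stayed among all nuclei and all other nuclei. No doublet caller was run. Single-nucleus gates had been tried first and were replaced because held-out markers were little enriched. Intervals are Poisson for levels, conditional binomial for ratios and Clopper-Pearson for shares, and cover counting error only. Those for levels and ratios do not allow for several fragments from the same nucleus. A gene was called past 1.5-fold if it had at least 30 fragments summed over both libraries. Python 3.11.15, numpy 2.4.6, scipy 1.17.1 and scikit-learn 1.9.0 were used.

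The members and gene lists were chosen with earlier results of these data known. Named genes were the 4 members, list genes past 1.5-fold whose interval left out 1 (at most 6 per list), and for each member the 5 genes with the most similar pattern and at least 5 CPM. Other genes and stretches were named after their values were seen: Bckdk, Pdp1, Pdp2, Pdpr, Mpc1, Mpc2, Adm, the list genes under 1.5-fold and the steps along Pdk1 and Pdk4. Alternatives were other barcode filters, the promoter only, promoter scaling, cut sites, thinning to 5000 fragments, other gates and alternate markers, and, chosen after seeing the data, a reactive astrocyte division, other neuronal and vascular gates, nuclei of at least 5000 fragments and fixed class shares. With 1 library per condition no test between conditions was made.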

Additional observations from a re-analysis of the deposited data

Results flagged for a closer look

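Pdk1 differed in direction between gates of the same 2 libraries. The ratio of stroke to sham was 1.30 (1.07 to 1.59) in GABAergic interneuron-gated nuclei and 0.699 (0.566 to 0.865) in astrocyte-gated, 0.763 (0.663 to 0.877) in glutamatergic neuron-gated and 0.590 (0.360 to 0.983) in vascular and leptomeningeal-gated nuclei. Each interval left out 1, but with 1 library per condition the difference between gates was not tested. With the gates built on the even-placed markers the interneuron ratio was 1.05 (0.801 to 1.38) and the vascular ratio 0.861 (0.426 to 1.88), and 400 sham and 344 stroke nuclei lay within 10% of the interneuron threshold. At the promoter alone the interneuron ratio was 1.07 (0.816 to 1.40) and the astrocyte ratio 0.686 (0.523 to 0.900), and in the rest of the window they were 1.69 (1.24 to 2.30) and 0.722 (0.507 to 1.03).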

How the results depend on the processing

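No paired analysis was possible because the brains were pooled into 1 library per group. Across all nuclei Pdk4 stayed higher in stroke in all alternatives, from 1.09 with the class levels changed alone to 1.78, but was under 1.5-fold when thinned (1.48) and without astrocyte-gated nuclei (1.47), and Pdk1, Pdk2 and Pdk3 stayed lower in all but those named here. Scaling to promoter fragments moved the median log2 ratio of all genes from -0.03 to 0.10, and the ratios of Pdk1, Pdk2 and Pdk3 were then 0.986, 1.01 and 0.997, so the direction of Pdk2 turned. Changing class shares alone gave 1.06 for Pdk1 and 1.02 for Pdk2, which is the other direction. With every called barcode kept, Pdk1 was at 0.730 and Pdk2 at 0.646, which is past 1.5-fold. With the promoter only, Pdk2 was at 0.870 and Pdk3 at 0.828.

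In astrocyte-gated nuclei the promoter only gave 0.732 for Pdk2 and 0.853 for Pdk3, which is below 1. Thinning to 5000 fragments, which used fewer nuclei, gave 0.894, 0.746, 3.09 and 0.766 for Pdk1, Pdk2, Pdk3 and Pdk4. A gate with 2 times the enrichment, which held 185 sham and 99 stroke nuclei, gave 1.06 for Pdk2. In the upper part of the reactive division the ratios were 1.08 for Pdk2, 2.29 for Pdk3 and 1.41 for Pdk4, and in the lower part 0.740 for Pdk4. Pdk1 was below 1 in all 13 alternatives, from 0.635 to 0.894, with an interval that held 1 in 3 of them, and Pdk3 was past 1.5-fold in 6.

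With the promoter only, the astrocyte level over all other nuclei was 1.87 (sham) and 1.47 (stroke) for Pdk1, and 2.31 and 1.99 for Pdk2. It was 0.737 and 0.752 for Pdk3, and 17.7 and 13.9 for Pdk4. The reported levels of Pdk1 were 1.47 (1.26 to 1.71) in sham and 1.13 (0.966 to 1.32) in stroke. Under the stricter gate the level was 0.941 (stroke) for Pdk1, 1.94 (sham) and 2.21 (stroke) for Pdk2, and 6.07 (stroke) for Pdk4. Of 40 alternative values in the astrocyte gate, 3 lay on the other side of 1, over 2 of 8 levels. All 3 belonged to levels whose reported interval held 1. In other gates 36 of 228 alternative values lay on the other side of 1, over 24 of 52 levels. Of these, 32 belonged to levels whose reported interval held 1, and 3 of the 32 then had an interval that left out 1, all with the promoter only: Pdk3 in glutamatergic neuron-gated nuclei (1.23 in sham and 1.36 in stroke) and Pdk2 in striatal spiny projection neuron-gated nuclei (0.728, stroke). The other 4 had a reported interval that left out 1: with the promoter only, Pdk2 in OPC (1.08, stroke), Pdk1 in glutamatergic (0.931, sham) and Pdk3 in interneuron-gated nuclei (0.855, sham), and with the even-placed markers Pdk4 in striatal spiny projection neuron-gated nuclei (from 0.301 to 1.197, sham). Genes past 1.5-fold numbered 2291 in all nuclei and 1228 with at least 100 fragments. In astrocyte-gated nuclei they numbered 2218, 3347 with at least 10 fragments and 1155 with at least 100. The cause of these moves was not tested beyond the changes each alternative makes. Depth limited the small gates: Pdk1 in OPC-gated nuclei, with 23 and 16 fragments, had an interval from 0.337 to 1.35.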

Other observations

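Called barcodes with 20% or less of their fragments in peaks numbered 162 in sham and 3686 in stroke and were left out above. In the stroke ones Pdk4 was at 8.73 CPM (7.78 to 9.76), with 23.6% of its window fragments within 1 kb of the start, against 70.3% in kept stroke nuclei. Pdk2 was at 12.3 CPM (11.2 to 13.6) and Pdk1 at 18.2 CPM (16.8 to 19.7) in these barcodes, against 52.3 and 35.3 CPM in kept stroke nuclei. Pdk3 was at 16.0 CPM (14.7 to 17.4) against 17.0 CPM.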
